A study of Homo sapiens with 2 samples.

Results

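This account follows 9 complement genes through colon organoids treated with inflammatory cytokines. They are C1R, C1S, C2, C3, C5, CFB, CFI, CD55 and CD59, chosen by name from the 36601 genes of the feature list. The rule uses no measured value, but the genes were chosen with earlier results of these data known. For each gene the transcript level and the share of cells with a transcript are given in both libraries, together with the cells that supplied its transcripts: epithelial cells, marked by EPCAM, or mesenchymal cells, marked by collagens.

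Complement is a set of plasma proteins and membrane proteins that tags microbes and damaged cells and can open pores in their membranes. The classical and lectin pathways cut C4 and C2, the alternative pathway works through factor B (CFB), and all of them meet at the cleavage of C3, after which C5 starts the terminal pathway. The liver makes most of the circulating components, while epithelia and stromal cells of the gut also make several of them locally. Regulators such as factor I (CFI), CD55 and CD59 hold the cascade back on the body's own cells.

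All organoids came from 1383D6, an established line of human induced pluripotent stem cells, and both groups had passed through the same culture with Activin A, FGF2, Matrigel, EGF, forskolin, PD98059, 5-aza-2'-deoxycytidine and A-83-01. The model thus rests on 1 line. The untreated group (CNT) and the group given TNF-α, IFN-γ and IL-1β together for 8 days (3CK) each consist of 1 single-cell library made with the 10x Genomics 3' chemistry, and the cytokine doses are not given in the labels. Ulcerative colitis is the disease the series title names, and the comparison asks how organoid cells differ after these cytokines. With 1 library per group no test was possible, and each interval is a 95% interval that covers counting error only.

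About 8300 cells were loaded per library, and the matrices held 3257 CNT and 1641 3CK barcodes. After filtering, 2487 CNT cells with 101831571 unique molecular identifiers (UMIs, counts of distinct captured transcripts) and 1398 3CK cells with 91860414 UMIs were kept, and the libraries shared 0 barcodes. Levels are UMIs per 1000000 UMIs (CPM), counted at transcript 3' ends and so without a length term, and 3 UMIs, the floor set for a count of 0, equal 0.0295 (CNT) and 0.0327 CPM (3CK). The median cell had 28911 UMIs in CNT and 62746 in 3CK. The epithelial range (EPCAM of at least 2 UMIs per 10000) held 1660 CNT cells (66.7% of cells, 74.8% of UMIs) and 1016 3CK cells (72.7% and 76.3%). The mesenchymal range (COL1A1, COL1A2 and COL3A1 together of at least 5 UMIs per 10000, EPCAM under 1) held 574 CNT cells (23.1% of cells, 19.3% of UMIs) and 124 3CK cells (8.87% and 9.92%). The remaining 253 CNT and 258 3CK cells met neither definition. These are ranges of marker level, not cell types: 88 CNT and 71 3CK epithelial cells lay at 2 to 3 EPCAM UMIs per 10000, and 497 CNT but 49 3CK cells of the epithelial range also reached the collagen minimum. Of the mesenchymal cells, 53 in CNT and 38 in 3CK lay near that minimum, at 5 to 10 collagen UMIs per 10000.

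The sample titles name colon epithelial cells, which describes only part of what was captured. The 6 epithelial markers were all present in both libraries, including the intestinal factor CDX2, but so were the 9 mesenchymal markers, which summed to 2524 CPM in CNT against 642 in 3CK. The 7 hepatic markers summed to 74799 CPM in CNT and 25906 CPM in 3CK, led by TTR, the transthyretin gene, at 49096 and 15303 CPM. The liver is the main source of plasma complement, so this level stands beside every value below and its part in them was not tested. Leukocyte markers summed to 93.7 and 134 CPM, with the pan-leukocyte gene PTPRC at 0.314 and 0.446 CPM. In the mesenchymal range they summed to 70.3 CPM in CNT and 222 CPM in 3CK, where PTPRC reached 3.62 CPM. The part of leukocyte RNA in the mesenchymal values was not tested.

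All 9 genes reached 1 CPM in at least one library. The proteases C1R, C1S and C2, the central component C3 and the alternative pathway protease CFB were at least 2-fold higher in 3CK, while C5, which starts the terminal pathway, was at least 2-fold lower. CFI was lower by 2.00-fold to 3 digits but just short of the limit, and the membrane regulators CD55 and CD59 differed by 1.11-fold and 1.03-fold. So 5 of 9 were higher and 1 of 9 lower. Of the 17523 genes that reached 1 CPM in a library, 6.96% were at least 2-fold higher and 11.3% at least 2-fold lower. Over the 9 genes the median log2 ratio (3CK over CNT) was 1.94, and over all genes tested it was -0.054. Without doublet removal or with equal weight per cell, among other settings, CFI also passed 2-fold lower, which made 2 of 9.

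**Figure D1:**
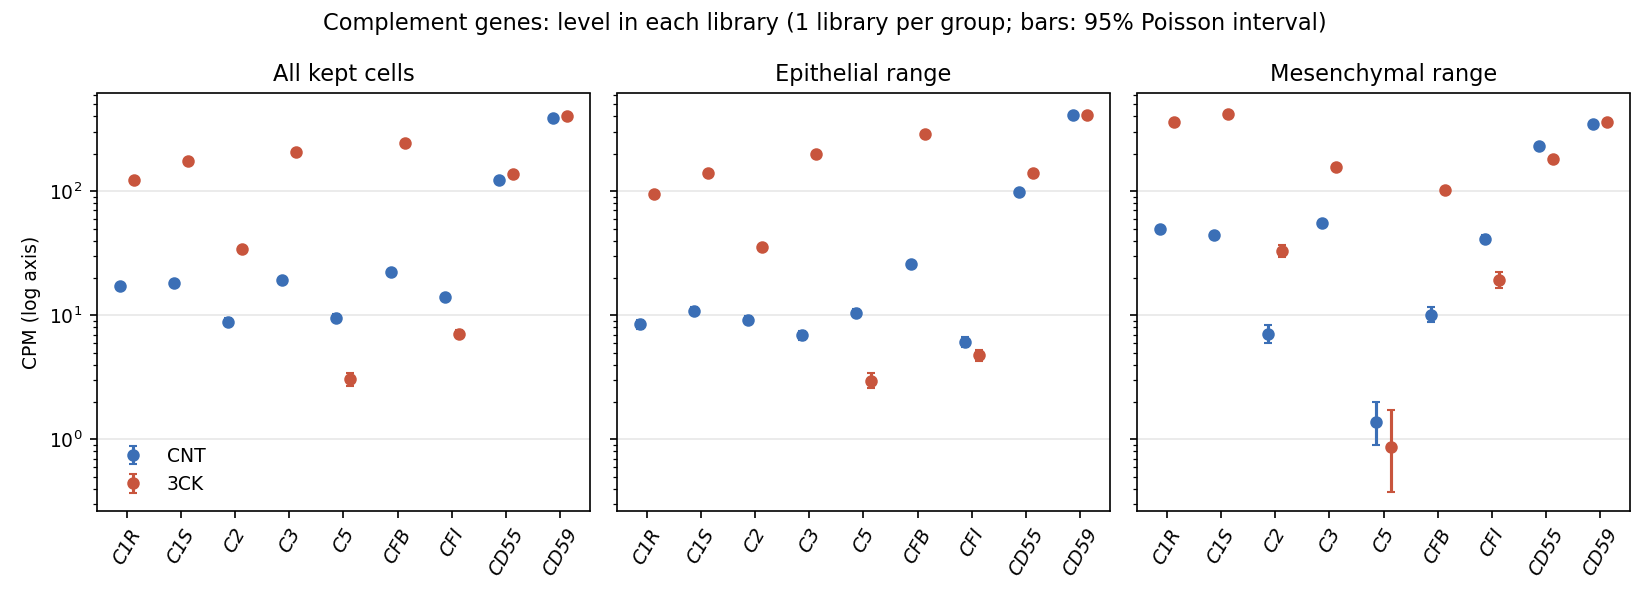
Level of each complement gene in CPM (log axis) in all kept cells, the epithelial range and the mesenchymal range, with CNT in blue, 3CK in red and bars for the 95% Poisson interval of 1 library each. In all kept cells C1R, C1S, C2, C3 and CFB lie higher in 3CK and C5 and CFI lower, while the CD55 and CD59 points of the libraries lie close together.

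C1R and C1S encode the paired serine proteases that are bound by C1q and start the classical pathway. C1R (ENSG00000159403, chr12:7080219-7092445, GRCh38.p14) had 1739 UMIs or 17.1 CPM in CNT (16.3 to 17.9) and 11249 UMIs or 122 CPM in 3CK (120 to 125). That is a log2 ratio of 2.84 (2.77 to 2.92), or 7.17-fold. C1S (ENSG00000182326, chr12:7060718-7071032), its neighbour, had 1861 UMIs or 18.3 CPM in CNT against 16025 UMIs or 174 CPM in 3CK, with a log2 ratio of 3.25 (3.19 to 3.32). The pair stood near the same level in CNT, and in 3CK C1S was the higher of them.

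Both proteases were higher in 3CK in each range. In the epithelial range C1R was at 8.47 CPM in CNT against 94.1 in 3CK, and C1S at 10.9 and 139 CPM, log2 ratios of 3.47 (3.36 to 3.59) and 3.67 (3.57 to 3.78). In the mesenchymal range the levels were higher to begin with: C1R stood at 49.4 and 361 CPM and C1S at 44.0 and 417 CPM, log2 ratios of 2.87 (2.77 to 2.98) and 3.24 (3.14 to 3.35). The mesenchymal range had the higher level of both genes in both libraries. With equal weight per cell the epithelial ratio of C1S was 2.94.

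The mesenchymal range was smaller in 3CK, and the transcripts came from the ranges in other shares. The collagens that define this range were also lower within it. COL1A1 was at 3010 CPM in CNT and 906 in 3CK, COL1A2 at 1537 and 604, and COL3A1 at 3316 and 1391. Among other mesenchymal markers there, LUM and PDGFRA were lower, DCN was level at 1210 and 1208 CPM, and ACTA2 and TWIST1 were higher. The part of lower collagen in the range's size and in its shares, here and below, was not tested. The epithelial range supplied 37.1% of C1R UMIs in CNT (34.8 to 39.4, Clopper-Pearson) and 58.6% in 3CK (57.7 to 59.5), and the mesenchymal range 55.8% and 29.3%. For C1S the epithelial share was 44.7% in CNT and 60.9% in 3CK. After each cell was thinned to 5000 UMIs, so that depth did not set the share, 3.95% of 1062 CNT and 35.4% of 776 3CK epithelial cells had a C1R UMI, and 22.5% of 320 and 75.7% of 107 mesenchymal cells. C1S was seen in 5.74% and 42.9% of epithelial and in 22.5% and 78.5% of mesenchymal cells. Without thinning, 21.6% and 71.3% of epithelial cells had a C1R UMI.

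C1R and C1S were also the closest match to each other across cells. Among 6246 genes seen in at least 10% of the 776 thinned 3CK epithelial cells, the gene with the highest Pearson r with C1R was C1S and the reverse, at 0.26, a description over cells of 1 library that share its depth and free RNA. Of the 3CK epithelial cells with a C1R UMI, 56.4% also had a C1S UMI, against 35.5% of those without. In CNT epithelial cells the same shares were 9.52% and 5.59%, where only 42 cells had a C1R UMI.

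C3 is the component on which all pathways converge, and its cleavage yields the tag C3b and the anaphylatoxin C3a. C3 (ENSG00000125730, chr19:6677704-6720650) had 1959 UMIs or 19.2 CPM in CNT (18.4 to 20.1) and 19090 UMIs or 208 CPM in 3CK (205 to 211). The log2 ratio was 3.43 (3.37 to 3.50), or 10.8-fold. In the epithelial range C3 was at 6.89 CPM in CNT (6.32 to 7.51) and 199.8 CPM in 3CK (196 to 203), a log2 ratio of 4.86 (4.73 to 4.99). In the mesenchymal range it was at 55.4 CPM in CNT (52.2 to 58.8) and 158 CPM in 3CK (150 to 166), a log2 ratio of 1.51 (1.39 to 1.62). By summed UMIs the order of the ranges was thus opposite in the libraries, with C3 higher in mesenchymal cells in CNT and in epithelial cells in 3CK. The median cell did not follow this in 3CK. Among 3CK cells with at least 10000 UMIs, median C3 was 87.7 CPM in the epithelial and 131 CPM in the mesenchymal range. With equal weight per cell the epithelial ratio was 4.19 and the mesenchymal ratio 2.20.

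The supply of C3 differed between the libraries as well. The mesenchymal range gave 55.6% of C3 UMIs in CNT (53.4 to 57.8) and 7.53% in 3CK (7.16 to 7.91), and the epithelial range 26.8% (24.8 to 28.8) and 73.4% (72.7 to 74.0). The remaining cells gave 17.6% and 19.1%. These last cells had the highest 3CK level of C3, 289 CPM (279 to 298) against 57.4 CPM in CNT (51.5 to 63.8). They were also shallower, with medians of 12865 UMIs in CNT and 26663.5 in 3CK, and richer in the nuclear RNA MALAT1, with medians of 118 and 38.7 UMIs per 10000 against 18.6 and 9.37 in the epithelial range. The part of depth and of nuclear RNA in this level was not tested.

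C3 was unevenly spread over cells. After thinning, 2.92% of CNT epithelial cells (1.99 to 4.12) and 40.5% of 3CK epithelial cells (37.0 to 44.0) had a C3 UMI, and 12.2% (8.81 to 16.3) and 51.4% (41.5 to 61.2) of mesenchymal cells. Among the 730 3CK epithelial cells with at least 10000 UMIs, the 10th percentile was 0 CPM, the median 87.7 CPM, the 90th percentile 597 CPM and the highest cell 2740 CPM. The corresponding percentiles of C1S were 20.0, 100.0 and 310 CPM, so C1S was the more even of them. The genes most like C3 over those thinned cells were the growth factor gene NRG3, the kynureninase gene KYNU and the mitochondrial superoxide dismutase gene SOD2, at r of 0.29, 0.28 and 0.27.

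**Figure D2:**
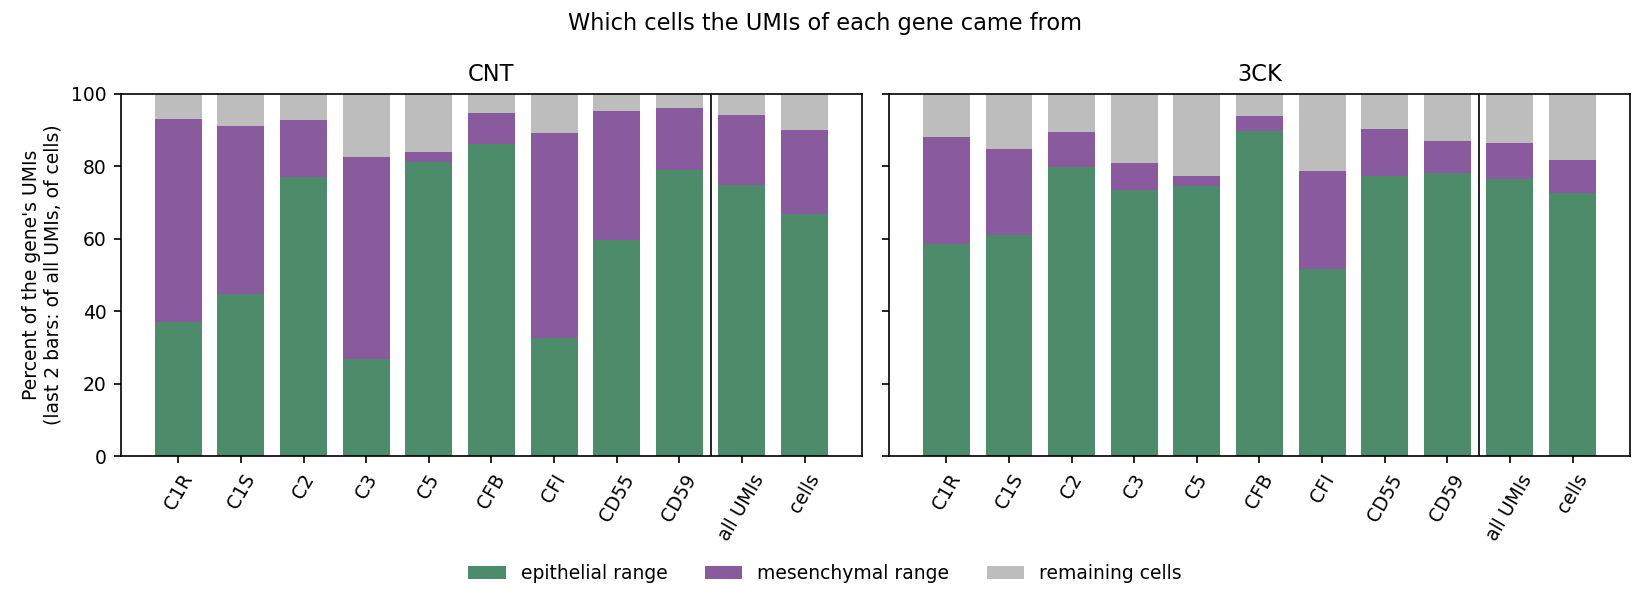
Percent of each gene's UMIs from the epithelial range (green), the mesenchymal range (purple) and the remaining cells (grey) in CNT and 3CK, with the percent of all UMIs and of cells as the last bars. The epithelial part of C3 is 26.8% in CNT and 73.4% in 3CK, while that of CFB is above 80% in both.

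The epithelial levels of genes rich in mesenchymal cells were set beside those of genes that epithelial cells should lack. In CNT the epithelial level of 6 mesenchymal markers outside the definition (DCN, LUM, PDGFRA, PDGFRB, ACTA2 and TWIST1) was 4.23% to 20.8% of their mesenchymal level, with a median of 8.75%. C3 at 12.4%, CFI at 14.8% and C1R at 17.2% lay inside that interval, so their CNT epithelial levels were not distinguishable from that background, and C1S at 24.8% lay above it. The epithelial ratios of C3, C1R and CFI rest on those CNT levels, which may include such RNA, and their counting intervals do not cover it, so the folds of C3 and C1R may be too low. In 3CK the markers were at 0.792% to 9.46%, whereas C1R was at 26.0%, C1S at 33.4%, CFI at 24.7% and C3 at 127%. The median UMI depth of epithelial and mesenchymal cells was 37785 and 23450.5 in CNT and 72198 and 65363 in 3CK.

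When the epithelial cells that also reached the collagen minimum were left out, the CNT level of C3 was 5.59 CPM and the 3CK level 199 CPM, a log2 ratio of 5.15. In the 497 CNT cells left out, C3 was at 19.4 CPM. Many of these were very shallow barcodes, with a median of 1087 UMIs against 58347 in the other CNT epithelial cells. The 49 left out of 3CK had a median of 1561 UMIs against 74707. At such depth a single collagen UMI reaches the minimum. The 497 cells held 7176465 UMIs in all and the 49 held 1325306, so most of their UMIs came from deeper cells among them. In those deeper cells a single collagen UMI does not reach the minimum. With the same cells left out, the epithelial log2 ratios of C1R, C1S and CFB were 3.75, 3.84 and 3.46, and that of CFI was -0.027.

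CFB encodes factor B, the protease of the alternative pathway, and C2 its counterpart in the classical and lectin pathways. The genes lie side by side on chromosome 6. CFB (ENSG00000243649, chr6:31946095-31952084) had 2277 UMIs or 22.4 CPM in CNT against 22545 UMIs or 245 CPM in 3CK, with a log2 ratio of 3.46 (3.39 to 3.52). C2 (ENSG00000166278, chr6:31897783-31945672) had 902 UMIs or 8.86 CPM in CNT against 3119 UMIs or 34.0 CPM in 3CK, with a log2 ratio of 1.94 (1.83 to 2.05).

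Of the 9 genes, CFB had the largest part of its UMIs from epithelial cells in both libraries. It stood at 25.7 CPM in CNT against 288 in 3CK in the epithelial range and at 10.1 and 102 CPM in the mesenchymal range, log2 ratios of 3.49 (3.42 to 3.56) and 3.33, the latter with fewer UMIs (199 in CNT). The epithelial range supplied 86.0% of its UMIs in CNT (84.5 to 87.4) and 89.6% in 3CK, above the range's 74.8% and 76.3% of all UMIs. After thinning, a CFB UMI was seen in 11.6% of CNT (9.72 to 13.7) and 64.2% of 3CK epithelial cells (60.7 to 67.6), and in 4.69% and 29.9% of mesenchymal cells. Epithelial RNA was also found in the mesenchymal range. After thinning, a UMI of the apolipoprotein gene APOA1 was seen in 67.2% of CNT and 32.7% of 3CK mesenchymal cells, and a UMI of TTR in 96.2% and 71.0%. The rarer enterocyte gene FABP2, seen in 9.32% of CNT and 3.09% of 3CK epithelial cells, was at 1.25% in CNT and 0 of 107 cells in 3CK (exact interval up to 3.39%, and 2.80% for 3 of 107 cells). The mesenchymal level of CFB was 39.4% of its epithelial level in CNT and 35.2% in 3CK. For 11 epithelial and hepatic markers that percentage ran from 1.60% to 35.6% in CNT (median 2.86%) and from 0.935% to 42.8% in 3CK (median 2.46%), with CDX2 the highest. The part of such RNA in the mesenchymal share of CFB was not tested.

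C2 differed less between the ranges than CFB did. It was at 9.12 and 35.4 CPM in epithelial cells and at 7.13 and 33.0 CPM in mesenchymal cells, log2 ratios of 1.96 (1.84 to 2.08) and 2.21 (1.92 to 2.51). After thinning, 4.71% and 16.0% of epithelial cells had a C2 UMI. In 3CK epithelial cells with a C2 UMI, 67.7% also had a CFB UMI, against 63.5% of those without. The genes most like CFB over cells were the surface glycoprotein genes CEACAM6, MUC13 and CEACAM5, at r of 0.38, 0.34 and 0.32. For C2 the leading genes were NCEH1, XPO1 and HOOK3, and none exceeded 0.15.

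Promoter sequences were read for the genes that moved together and for a pair that did not, to show what their start sites hold. RefSeq promoters (GRCh38.p14, 250 bases before to 50 after a start) were matched for 7 of the 9 genes, all but C1S and C3, in 13 windows. They were searched on both strands for the interferon-gamma activated site GAS (TTCNNNGAA), the interferon-stimulated response element ISRE (GAAANNGAAA) and the kappaB consensus, which are bound by STAT, IRF and NF-kappaB factors. Of 35116 promoters, 7.66% held a GAS match, 3.57% an ISRE match and 11.3% a kappaB match, and 12 promoters (0.0342%) held all 3. The CFB window was one of those 12. The 250 bases before the start are printed 5' to 3' on the gene's strand, with matches in capitals.
CFB, chr6:31945845-31946094, plus strand: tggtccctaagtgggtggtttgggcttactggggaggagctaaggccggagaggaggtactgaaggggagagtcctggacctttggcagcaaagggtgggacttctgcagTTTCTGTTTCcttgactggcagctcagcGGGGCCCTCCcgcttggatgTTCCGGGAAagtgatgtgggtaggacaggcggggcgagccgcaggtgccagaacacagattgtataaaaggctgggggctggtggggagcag
C1R, chr12:7091894-7092143, minus strand: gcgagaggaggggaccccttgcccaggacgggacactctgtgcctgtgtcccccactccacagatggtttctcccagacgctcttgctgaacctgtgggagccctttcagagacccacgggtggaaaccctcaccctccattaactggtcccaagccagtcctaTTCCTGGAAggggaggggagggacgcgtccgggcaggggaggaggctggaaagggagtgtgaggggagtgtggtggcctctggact
CD59, chr11:33736480-33736729, minus strand: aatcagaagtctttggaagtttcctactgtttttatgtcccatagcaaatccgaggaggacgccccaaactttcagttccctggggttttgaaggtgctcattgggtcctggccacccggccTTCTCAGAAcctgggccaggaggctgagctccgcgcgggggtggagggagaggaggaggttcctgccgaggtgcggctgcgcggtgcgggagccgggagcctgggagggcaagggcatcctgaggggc
C5, chr9:121074866-121075115, minus strand: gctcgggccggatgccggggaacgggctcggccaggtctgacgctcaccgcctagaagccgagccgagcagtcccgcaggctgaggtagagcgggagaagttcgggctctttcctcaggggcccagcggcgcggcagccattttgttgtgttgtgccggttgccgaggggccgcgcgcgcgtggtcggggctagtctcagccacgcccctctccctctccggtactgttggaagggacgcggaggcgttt
In CFB the ISRE match TTTCTGTTTC, on the minus strand, began 140 bases before the start, the kappaB match GGGGCCCTCC 112 before and the GAS match TTCCGGGAA 92 before, and none overlapped another. The second of the C1R windows had a GAS match, TTCCTGGAA, 86 bases before its start. CD59, whose level hardly differed over all kept cells, had a GAS match as well, TTCTCAGAA at 128 bases before the start. A further CD59 window that overlaps this one holds the same match. Among the genes with a window, which leave out C1S and C3, a match was thus not confined to the higher ones. The letters searched were in none of the windows of C2, C5, CFI and CD55, nor in the first C1R window. They were also absent from the CD59 windows at chr11:33722900-33723199 and chr11:33722678-33722977. A match is a description of letters, not of binding.

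C5 encodes the component whose cleavage yields the anaphylatoxin C5a and begins pore assembly. C5 (ENSG00000106804, chr9:120952335-121074865) had 977 UMIs or 9.59 CPM in CNT against 281 UMIs or 3.06 CPM in 3CK, with a log2 ratio of -1.65 (-1.85 to -1.46). The epithelial range supplied 81.2% of its UMIs in CNT and 74.4% in 3CK, beside 74.8% and 76.3% of all UMIs. The remaining cells had the highest level of C5, 26.1 CPM in CNT and 5.06 CPM in 3CK. They supplied 16.1% and 22.8% of its UMIs. The epithelial level of C5 was 10.4 CPM in CNT and 2.98 CPM in 3CK, a log2 ratio of -1.80 (-2.03 to -1.58). In mesenchymal cells there were only 27 CNT and 8 3CK UMIs, and the log2 ratio of -0.65, with an interval that reached up to 0.53, did not show a difference at this depth. It was -4.21 with equal weight per cell and -2.70 with stricter boundaries. It was also -2.45 (-5.58 to -0.45) in non-cycling cells and 2.23 (-0.25 to 5.57) in cycling mesenchymal cells, so no direction is given for these few UMIs. After thinning, 5.37% of CNT and 2.45% of 3CK epithelial cells had a C5 UMI.

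CFI encodes factor I, the plasma protease that inactivates C3b and C4b. CFI (ENSG00000205403, chr4:109730982-109801999) had 1438 UMIs or 14.1 CPM in CNT and 649 UMIs or 7.07 CPM in 3CK, 2.00-fold lower (log2 interval -1.14 to -0.86). Its level was higher in mesenchymal cells, at 41.5 CPM in CNT against 19.3 in 3CK, a log2 ratio of -1.10 (-1.35 to -0.87). In epithelial cells it was at 6.13 and 4.76 CPM, a log2 ratio of -0.36 (-0.57 to -0.16). This lower epithelial level did not hold in each range of TTR given below. The mesenchymal range supplied 56.7% of CFI UMIs in CNT and 27.1% in 3CK. With TMM factors, another scaling, the mesenchymal ratio was -0.92, and with stricter boundaries -0.73. CFI was therefore lower within the mesenchymal range, and that range, as set by its collagens, was also smaller in 3CK.

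CD55, or decay-accelerating factor, breaks up the C3 convertases on the cell surface, and CD59 blocks the final pore. CD55 (ENSG00000196352, chr1:207321678-207360966) had 12635 UMIs or 124 CPM in CNT and 12630 UMIs or 137 CPM in 3CK. Its log2 ratio over all kept cells was 0.15 (0.11 to 0.18), and it was -0.055 when each cell had equal weight, so no direction is given. The ratio had opposite signs in the ranges: epithelial CD55 was at 98.8 CPM in CNT against 139 in 3CK, with a log2 ratio of 0.49 (0.45 to 0.54), and mesenchymal CD55 at 229 and 183 CPM, a log2 ratio of -0.33 (-0.41 to -0.25). The higher epithelial level did not hold in the cycling cells given below. After thinning, 31.1% of CNT and 41.0% of 3CK epithelial cells had a CD55 UMI, and 47.2% and 37.4% of mesenchymal cells.

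CD59 was the most abundant of the 9 genes in both libraries and, over all kept cells, the one that differed least. CD59 (ENSG00000085063, chr11:33703010-33736479) had 39593 UMIs or 389 CPM in CNT and 36798 UMIs or 401 CPM in 3CK. The log2 ratio was 0.043 (0.023 to 0.064), and -0.052 once the total excluded mitochondrial and ribosomal genes and the top 50, so no direction is given. Epithelial CD59 stood at 409.5 and 409.6 CPM (CNT and 3CK). This likeness did not hold in each range of TTR given below. Mesenchymal CD59 stood at 345 and 361 CPM, a log2 ratio of 0.065 that turned to -0.012 under stricter cell filters. After thinning, 75.5% and 78.0% of epithelial cells had a CD59 UMI, the widest detection among the 9 genes. The gene most like CD59 over 3CK epithelial cells was B2M, the light chain of MHC class I, at r of 0.38, and for CD55 it was CEACAM5 at 0.29.

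**Figure D3:**
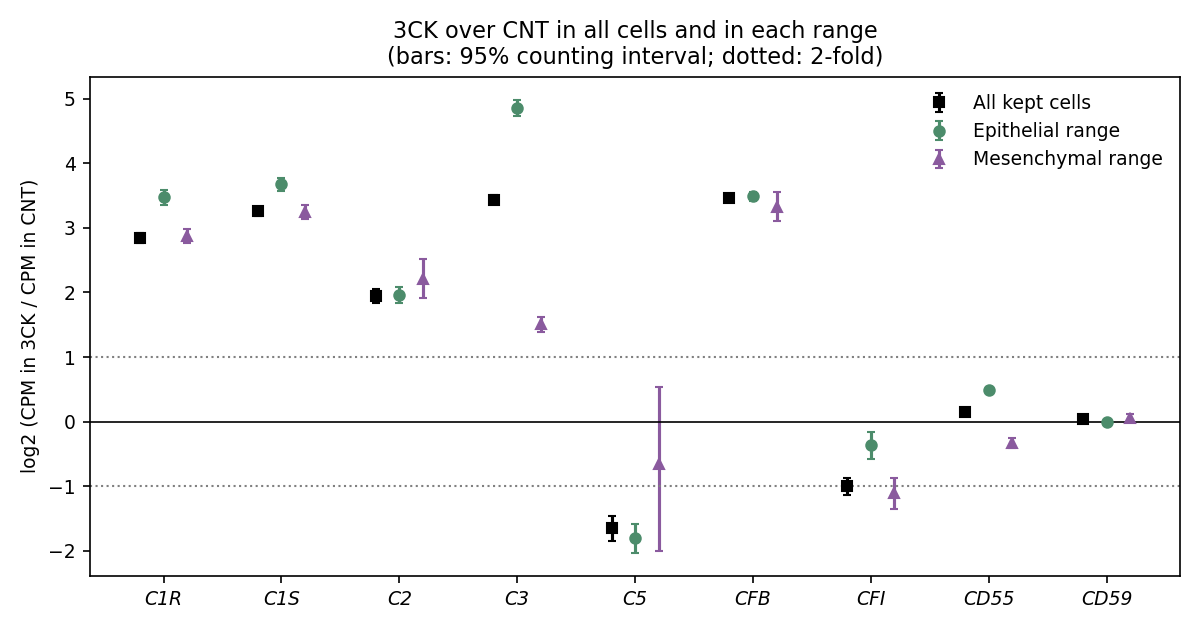
Log2 ratio of 3CK to CNT for each gene in all kept cells (black squares), the epithelial range (green circles) and the mesenchymal range (purple triangles), with 95% counting intervals and dotted lines at 2-fold. C3 shows the widest gap between ranges, 4.86 against 1.51, and CD55 lies on opposite sides of 0.

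Set side by side, 5 of 9 genes were at least 2-fold higher and 1 of 9 at least 2-fold lower in either range. In the epithelial range 8.48% of 16809 genes were at least 2-fold higher and 12.1% at least 2-fold lower, and in the mesenchymal range 6.05% and 16.7% of 17353 genes. The gene past 2-fold lower was C5 in the epithelial and CFI in the mesenchymal range. The median log2 ratio of the 9 genes was 1.96 in epithelial and 1.51 in mesenchymal cells, against 0.01 and -0.21 for all genes tested. That last shift of all genes applies to each mesenchymal ratio given here.

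Epithelial cells were then divided by their level of TTR, the most abundant hepatic transcript, into cells with at least 300, 30 to 300 and under 30 UMIs per 10000. These held 1067, 530 and 63 CNT cells and 179, 653 and 184 3CK cells. C3 was at 5.06, 8.78 and 22.3 CPM in CNT and at 103, 192 and 327 CPM in 3CK, from high to low TTR. It was thus highest where TTR was lowest in both libraries, with log2 ratios of 4.35, 4.45 and 3.88. CFB showed no such order in 3CK, at 289, 292 and 276 CPM, and C2 stood at 35.2, 36.9 and 31.3 CPM. C1S was at 106, 138 and 179 CPM. C5 was lower in 3CK in each of the 3, with log2 ratios of -1.26, -2.22 and -1.34. CFI was lower only in the middle one, with log2 ratios of 0.16 (-0.21 to 0.51), -1.20 (-1.51 to -0.88) and 0.32 (-0.42 to 1.13). C1R, C1S, C2, C3 and CFB were higher in 3CK in each of the 3. CD59, level over the epithelial range, had log2 ratios of 0.19 (0.15 to 0.23), 0.096 (0.055 to 0.14) and -0.36 (-0.44 to -0.29). It was thus lower in 3CK only where TTR was lowest. These are wide ranges over which the libraries spread differently, and the part of TTR level within them was not tested.

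**Figure D4:**
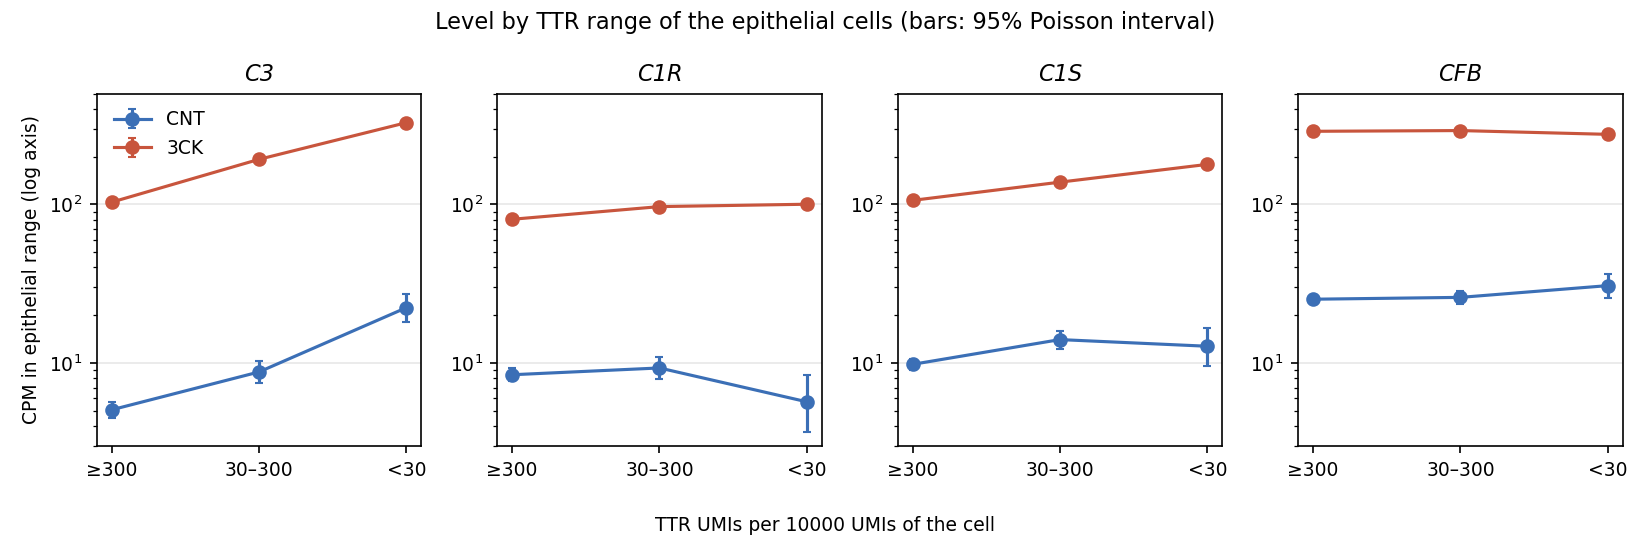
Level of C3, C1R, C1S and CFB in CPM (log axis) in epithelial cells by TTR level, with CNT in blue, 3CK in red and bars for the 95% Poisson interval of 1 library each. C3 runs from 103 to 327 CPM in 3CK as TTR falls, while CFB stays between 276 and 292 CPM.

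Cycling cells, with at least 2 UMIs of MKI67 and TOP2A per 10000, differed from the others in some genes. In 3CK the 37 cycling epithelial cells had CFB at 144 CPM (129 to 160) and the 979 others at 293 CPM (289 to 297). C3 was at 256 CPM (235 to 277) in cycling and 198 CPM (195 to 201) in other 3CK epithelial cells. CD55 was lower in cycling 3CK epithelial cells, at 184 CPM in 62 CNT cells and 99.4 CPM in 37 3CK cells. Its log2 ratio was -0.89 (-1.15 to -0.63) there and 0.53 (0.49 to 0.58) in the other epithelial cells. Cycling cells are few, and each group is 1 library.

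Epithelial C3 in 3CK also varied with the nuclear RNA MALAT1. This division was chosen after the values were seen. At under 100, 100 to 300 and at least 300 MALAT1 UMIs per 10000, in 810, 112 and 94 cells, C3 was at 173, 290 and 375 CPM, CD59 at 439, 333 and 189 CPM and CFB at 286, 305 and 288 CPM. In CNT the C3 levels were 7.39 (6.75 to 8.08), 3.91 (2.66 to 5.56) and 2.95 CPM (1.19 to 6.08), from 487, 31 and 7 UMIs. There C3 was highest where MALAT1 was lowest, unlike in 3CK. The middle and highest divisions could not be ordered at this depth. TTR fell over the same divisions in both libraries, at 21573, 12234 and 6467 CPM in 3CK and 69820, 39668 and 11119 CPM in CNT. The division by MALAT1 and the one by TTR thus overlap, and their parts in the order of C3 were not separated. In the cells lowest in MALAT1, C3 was thus at 7.39 CPM in CNT against 173 in 3CK, and the part of nuclear RNA in these values was not tested beyond this division.

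The other parts of the pathway were read from a list of 46 further complement genes, of which 24 reached 1 CPM in all kept cells. Of these, 4 were at least 2-fold higher and 10 at least 2-fold lower in 3CK, and their median log2 ratio was -0.41. Of all 17523 genes tested, 6.96% were higher and 11.3% lower by that limit. In the epithelial range 23 of the list reached 1 CPM, with 4 higher and 7 lower, beside 8.48% and 12.1% of all genes there. So the higher levels of C1R, C1S, C2, C3 and CFB were not shared by most of the list. The 3 recognition genes that reached 1 CPM were all lower: the collectin genes COLEC10 and COLEC11 went from 24.2 and 26.2 CPM in CNT to 3.95 and 5.39 CPM in 3CK, and MBL2, the mannose-binding lectin gene, from 117 to 12 UMIs. COLEC10 and COLEC11 stood at 100 and 107 CPM in the CNT mesenchymal range, which was smaller in 3CK, and at 4.54 and 6.14 CPM in the epithelial range. Their log2 ratios were -2.89 and -1.78 in mesenchymal cells and -0.91 and -1.72 in epithelial cells. MASP1 and MASP2, the lectin pathway proteases, were lower as well, MASP1 at 16.5 CPM in CNT against 5.45 in 3CK and MASP2 at 2.69 against 0.544. In the epithelial range the log2 ratios of MASP1 and MASP2 were -0.91 and -2.42. The C1q chain genes C1QA, C1QB and C1QC, whose product binds C1r and C1s, stayed under 1 CPM in both libraries, with C1QB at 0 UMIs in CNT and 42 in 3CK. They and the C4 genes were named after their values were seen. C4A and C4B, which encode the partner of C2, also stayed under 1 CPM. Reads of these near-identical copies cannot be told apart, so no level of C4 is drawn from these counts.

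Regulators in the fluid phase differed in both directions. SERPING1, the C1 inhibitor that blocks C1r and C1s, was at 23.0 CPM in CNT against 333 in 3CK, a log2 ratio of 3.85 (3.79 to 3.91). In epithelial cells SERPING1 was at 14.3 and 349 CPM, and in mesenchymal cells at 57.8 and 320 CPM. VTN, the vitronectin gene, was lower, at 1182 and 461 CPM, and so was the clusterin gene CLU at 450 and 327 CPM. In epithelial cells divided by TTR, from high to low, the log2 ratios of VTN were -0.66, -1.11 and -0.45. Those of CLU were 0.088 (0.056 to 0.12), -0.33 (-0.37 to -0.29) and 0.036 (-0.082 to 0.16), so CLU was lower only in the middle one. C4BPB, a chain of the C4b-binding protein, was at 60.1 and 42.0 CPM.

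Terminal and receptor genes stood at low levels. Of the terminal components, 4 of 6 reached 1 CPM and 3 of these were at least 2-fold lower, beside 11.3% of all genes tested. The largest difference among them was that of C7, with 109 UMIs in CNT and 12 in 3CK. CD46, the membrane cofactor for factor I, was at 87.9 and 83.2 CPM. C1RL, a C1R-like protease gene next to C1R, was at 32.4 and 38.2 CPM. Among receptors C3AR1, the receptor of C3a, had the largest ratio, with 231 UMIs in 3CK against 74 in CNT and a log2 ratio of 1.79 (1.41 to 2.19).

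**Figure D5:**
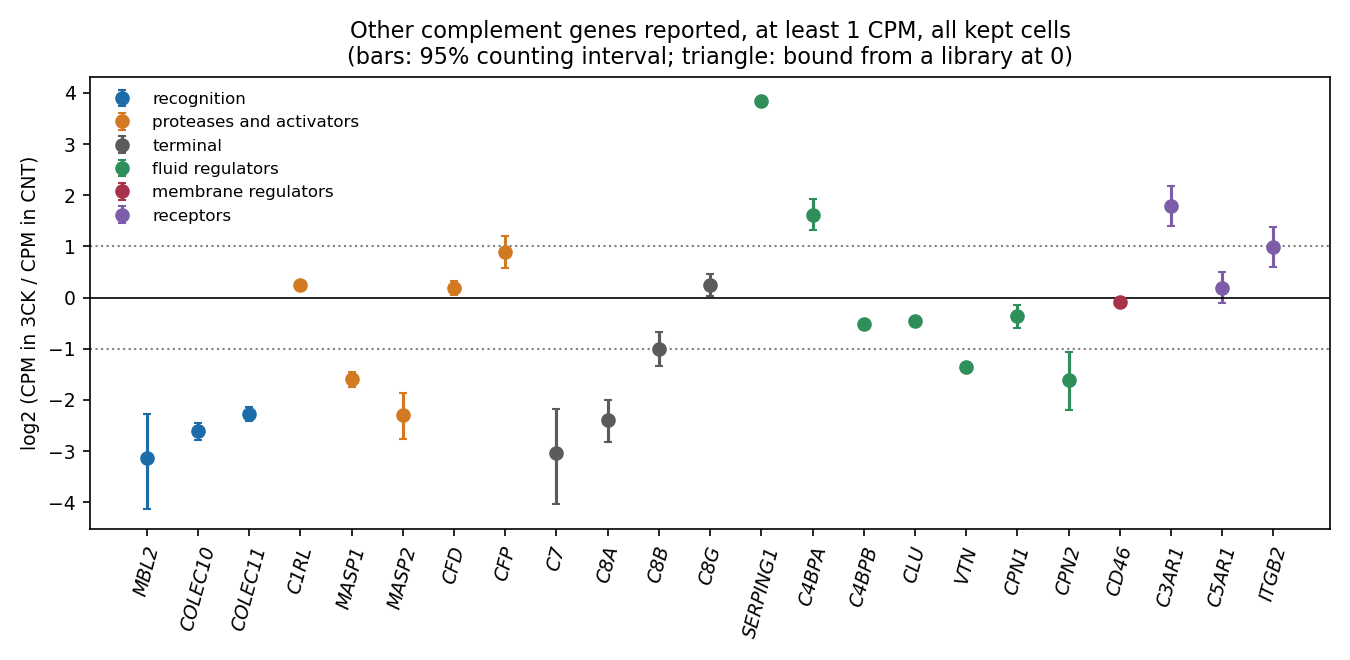
Log2 ratio of 3CK to CNT in all kept cells for the other complement genes reported here with at least 1 CPM, coloured by role, with 95% counting intervals and dotted lines at 2-fold. SERPING1 lies at 3.85, and the recognition genes lie below -2.

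Reads of overlapping genes limit how finely some values can be assigned. In GENCODE v44, which may differ from the annotation used for the counts, C1R and C1RL overlap by 2954 bases on the same strand C2 and CFB by 24 bases, and C3 and GPR108 by 649 bases. Each level is that of the counts as assigned in the deposited matrices.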

How the data were processed

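The 2 libraries were deposited as matrices of UMI counts per gene and barcode, which the authors made with Cell Ranger 7.1.0 on GRCh38, per the submitters' processing notes; the values are raw, and the annotation is not given in the sources used here. Barcodes with at least 500 genes and at most 20% mitochondrial UMIs were kept, and doublets were scored with Scrublet (scanpy 1.11.5, Python 3.11.15) and removed at 0.8% per 1000 barcodes (52 CNT, 16 3CK). The filters took out 412 CNT and 52 3CK barcodes for few genes and 306 and 175 for mitochondrial UMIs.

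UMIs were summed per library and range and scaled to CPM. A count of 0 was set to 3 UMIs. Sums have exact Poisson intervals, ratios and shares exact binomial ones. All cover counting error only, at the 95% level. The ratio and its interval were tried on Poisson counts simulated from the CNT sums. This checks the calculation only, since such counts hold no spread between cells or libraries. For shares, each cell was thinned to 5000 UMIs, and shallower cells (943 in CNT, 335 in 3CK) were dropped. Of the 46 further genes, those with at least 10 CPM over all kept cells and, per role, the largest ratio with at least 1 CPM were named. For the flagged results, at least 10 CPM in any range was enough, which let in CFD. The counts cover the whole list, of which 1 gene is not reported here by name. The members, lists and ranges were chosen with earlier results of these data known. Alternatives were other filters, scalings (TMM from edgeR 4.0.16), weights, depths and boundaries. With 1 library per group, no test across samples was made.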

Additional observations from a re-analysis of the deposited data

Results flagged for a closer look

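CD55 was higher in 3CK in epithelial cells, with a log2 ratio of 0.49, and lower in mesenchymal cells, at -0.33, so it moved in opposite directions in the ranges. The factor D gene CFD did the same, at 0.30 in epithelial and -1.10 in mesenchymal cells. C4BPB, at -0.78 and 0.51, and CLU, at -0.54 and 0.20, were lower in epithelial and higher in mesenchymal cells. Divided by TTR level from high to low, epithelial CLU was at 0.088, -0.33 and 0.036, so its lower level did not hold in each range. In each case both counting intervals lay apart from 0, and the difference between the ranges was not tested, since each group is 1 library. When each cell had equal weight, the ratio of CD55 was 0.19 in epithelial and -0.09 in mesenchymal cells. In cycling epithelial cells CD55 was lower in 3CK, with a log2 ratio of -0.89 (-1.15 to -0.63).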

How the results depend on the processing

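The number of the 9 genes at least 2-fold higher was 5 in all kept cells and in both ranges under every alternative run, out of the 8 genes left where the minimum was 10 CPM. Of 216 ratios of single genes under alternatives, 211 kept their sign, and 23 of 27 gene and range pairs kept it throughout. The exceptions were CD55 and CD59: over all cells CD55 was -0.055 with equal weight per cell and CD59 -0.052 without mitochondrial, ribosomal and the 50 most abundant genes in the total, and mesenchymal CD59 was -0.012 with 1000 genes and 10% mitochondrial UMIs as limits. Epithelial CD59, at 0.00026, ranged from -0.12 to 0.031. The median over the 9 genes in all cells was 2.24 with equal weight and 2.39 with a minimum of 10 CPM (8 genes), and in epithelial cells 2.22 and 2.72. In mesenchymal cells it was 1.23 with no filter, 1.69 with TMM factors, 2.20 with equal weight, 1.86 with a minimum of 10 CPM and 1.38 with stricter boundaries. The median of the other complement genes was -0.24 with equal weight. At least 2-fold lower in all cells were 2 of the 9 genes with no filter, without doublet removal, with the reduced total and with equal weight, and 0 with a minimum of 10 CPM, since CFI lies at the limit and C5 is left out there. In mesenchymal cells the number was 0 with TMM factors and 2 with equal weight. With a minimum of 10 CPM the other complement genes numbered 10, of which 2 were higher and 4 lower, beside 6.43% and 7.34% of all genes. The median of all genes in mesenchymal cells was -0.21, and -0.018 with TMM factors; in epithelial cells it was 0.0080, and -0.11 with the reduced total and -0.12 with equal weight.

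With stricter boundaries the epithelial range supplied 21.0% of C3 UMIs in CNT and 51.8% in 3CK. Without collagen-bearing cells, an alternative chosen after seeing the data, it supplied 19.7% and 71.6%. The alternatives for single ratios in the ranges and for the numbers past 2-fold were added after seeing the data as well. Apart from settings named here, the cause of the changes was not tested. No paired analysis was possible because each group is 1 library. Depth limits C5 in mesenchymal cells most, and the mesenchymal range of 3CK rests on 124 cells.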
